A study of Rattus norvegicus with 20 samples.

Results

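The kidney microRNAs (miRNAs) of rats on day 4 of treatment with aristolochic acid I (AAI) were compared with those of vehicle-treated rats. The comparison took the 5 arrays labelled as treated kidney at day 4 and the 5 labelled as control kidney at day 6, out of 20 arrays in all. All animals were male Wistar rats of 80 to 100 g. Treated rats received intraperitoneal AAI at 40 mg per kg body weight for up to 6 days, and control rats received PEG400 in water on the same schedule. The other 10 arrays held AAI kidneys of day 2 and day 6, with 5 arrays each. The vehicle kidneys used here were collected on day 6, so for the day 4 comparison the collection day and the treatment cannot be told apart. Each array held the RNA of 1 kidney sample, and p-values measure the spread between these samples.

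Aristolochic acids are plant nitrophenanthrene acids that injure the proximal tubule of the kidney and form DNA adducts after metabolic reduction. A miRNA is a short RNA that is cut from 1 arm of a hairpin precursor. It guides repression of messenger RNAs that pair with its seed, the bases near its 5′ end. The 2 arms of a precursor (5p and 3p) come from the same transcript, but usually 1 of them is kept and the other degraded. Kidney tubule cells are known for high levels of miR-192, miR-194, miR-204 and the miR-30 family.

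Of 262 tested miRNAs, 9 (3.44%) passed an adjusted p of 0.05 in limma between AAI day 4 and vehicle. The 6 that rose (2.29% of those tested) were miR-23a-5p, miR-21-3p, miR-341, miR-465-5p, miR-489-3p and miR-551b-5p. The 3 that fell (1.15%) were miR-146a-5p, miR-196c-5p and miR-361-5p. Of the 6, only miR-341 and miR-489-3p were detected on every vehicle array. The other risen miRNAs entered the test only through AAI groups, where their levels were higher, so the filter was not independent of the comparison. When detection on all arrays of both groups was required, limma called 2 higher and 3 lower of 236. Without AAI day 4 array 2, the array with the most detected miRNAs, the same 9 passed together with miR-500-3p, which makes 10 (3.82%). The calls of the last 3 rest on scaling between arrays, without which miR-196c-5p and miR-361-5p also change direction, and 5 of the 6 that rose gave little signal over background, as described with each.

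The mature sequences of 8 of the 9 are shown because the seeds set them apart. They were read from RefSeq (rat assembly GRCr8) and are given 5′ to 3′ with the seed, bases 2 to 8, in capitals.
miR-21-3p: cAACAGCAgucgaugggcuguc
miR-341: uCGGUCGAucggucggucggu
miR-465-5p: uAUUUAGAacggugcuggugug
miR-489-3p: aUGACAUCacauauauggcagc
miR-551b-5p: gAAAUCAAgcuugggugagaccu
miR-146a-5p: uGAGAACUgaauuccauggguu
miR-196c-5p: uAGGUAGUuucguguuguuggg
miR-361-5p: uUAUCAGAaucuccagggguac
The 8 have 8 different seeds. Among the 232 tested miRNAs with a RefSeq sequence, which hold 188 seeds, miR-146a-5p shared its seed with miR-146b-5p, and miR-196c-5p with miR-196a-5p and miR-196b-5p. The seeds of the other 6 occurred once.

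miR-23a-5p is named without a mature sequence. Its array probes are nested. The longest of its 4 probes is shown with the 3 bases that the shortest one lacks in capitals, because the signal ranges on these probes rose with length.
longest probe of miR-23a-5p: aaatcccatcccCAG

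In the deposited probe annotation (rat build rn4), the longest probes of the risen miRNAs lie at chr19:25638760-25638774 for miR-23a-5p, chr10:74864562-74864576 for miR-21-3p and chr6:134203581-134203594 for miR-341. Those of the other risen miRNAs lie at chrX:152868900-152868912 for miR-465-5p, chr4:28518325-28518341 for miR-489-3p and chr2:114095903-114095917 for miR-551b-5p. The miRNAs that fell lie at chr10:28476386-28476405 (miR-146a-5p), chr10:84995958-84995979 (miR-196c-5p) and chrX:101800156-101800171 (miR-361-5p). Gene models of rn4 were not used here.

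Levels are log2 of the summed probe signal relative to the array's 75th percentile, so that 0 is that percentile and 1 unit is a doubling. Values after ± are SDs over 5 arrays for levels, and SEs for differences. A difference is day 4 minus vehicle, and its p is limma's, adjusted by Benjamini-Hochberg over the 262 miRNAs.

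miR-21-3p is the 3p arm of the miR-21 precursor, whose 5p arm is widely described as raised in injured kidney. Its level was -3.08, -3.54, -3.40, -3.10 and -2.43 on day 4 arrays 1 to 5. On vehicle arrays 1 to 5 it was -4.51, -4.98, -5.46, -5.78 and -5.14. Every day 4 array lay above every vehicle array, with means of -3.11 ± 0.43 and -5.17 ± 0.48 (SD, n = 5 each). The difference was 2.06 ± 0.32 (limma adjusted p = 0.000588), and 2.17 ± 0.34 without array 2 (limma adjusted p = 0.000926). It was detected on 5 of 5 day 4 and 3 of 5 vehicle arrays. Its longest probe was well above background on 5 day 4 arrays and on 0 vehicle arrays. The vehicle level is then a bound, and for that probe the day 4 mean was at least 1.75-fold higher (-4.11 against a vehicle bound of -4.92).

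The 5p arm did not pass. miR-21-5p was 3.46, 3.56, 3.57, 3.94 and 4.32 on day 4 arrays 1 to 5 and 3.38 ± 0.06 in vehicle, a difference of 0.39 ± 0.24 (limma adjusted p = 0.339). Its lowest day 4 level equalled the highest vehicle level, 3.46.

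miR-23a-5p is the 5p arm of a precursor transcribed in 1 cluster with miR-27a and miR-24-2. It was detected on 5 of 5 day 4 arrays and on 0 of 5 vehicle arrays, and was the one miRNA with that pattern. Its summed signal before scaling was 24.5, 38.4, 30.4, 20.5 and 27.1 intensity units on day 4 arrays 1 to 5, and -1.66, 5.15, 4.53, -0.331 and 4.29 on vehicle arrays 1 to 5. The groups did not overlap, and vehicle arrays 1 and 4 were below 0 and were set to the floor. The levels were -4.09 ± 0.22 at day 4 and -6.74 ± 0.52 in vehicle. The fitted difference was 2.66 ± 0.35 (limma adjusted p = 0.000129), and 2.60 ± 0.38 without array 2 (limma adjusted p = 0.000697).

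None of the 4 miR-23a-5p probes was well above background on a vehicle array, and the longest was on 2 of 5 day 4 arrays. Its day 4 mean, -5.19, was under the vehicle bound of -4.92, so no fold is given. With the mean of log2 probes in place of the sum, the difference was 0.89 ± 0.24 and missed the threshold (limma adjusted p = 0.0563). The shortest probe ranged from -1.15 to 2.46 intensity units at day 4 and the longest from 10.3 to 14.9, against 2.86 to 4.70 for the longest in vehicle. Its abundant partner and cluster neighbours did not pass. The difference was -0.11 ± 0.09 for miR-23a-3p, -0.09 ± 0.11 for miR-27a-3p, -0.12 ± 0.08 for miR-24-3p and -0.02 ± 0.14 for miR-24-2-5p (limma adjusted p = 0.519, 0.627, 0.374 and 0.953).

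miR-341, a rodent miRNA of the imprinted Dlk1-Dio3 region, was the one risen miRNA with probes well above background in both groups. Its longer probe was so on all 10 arrays and its shorter one on 5 day 4 and 3 vehicle arrays. The level was -1.86, -2.02, -2.08, -1.96 and -2.05 on day 4 arrays 1 to 5 and -3.45, -3.48, -3.37, -3.57 and -3.07 on vehicle arrays 1 to 5. The groups did not overlap, and vehicle array 5, on another slide than the rest of its group, was the highest of the vehicle arrays. The level was 2.63-fold higher at day 4 (95% interval 1.90 to 3.64), a difference of 1.40 ± 0.22 (limma adjusted p = 0.000588). Without array 2 it was 1.40 ± 0.24 (limma adjusted p = 0.00191). Its probe pair gave ratios of 2.67 and 2.58. The printed sequence is a repeat of cggu broken by CGAu, and no other tested miRNA with a sequence held its seed. Of the 8 tested miRNAs of the Dlk1-Dio3 list, miR-341 was the one that passed, against 3.44% of all tested miRNAs. The nearby miR-370-3p differed by 0.16 ± 0.52. Its level was -0.32 on day 4 array 2 and on average -3.53 on the other 4 day 4 arrays, against -3.04 in vehicle.

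miR-465-5p belongs to an X-linked rodent cluster known for expression in testis. It was detected on 5 of 5 day 4 arrays and 1 of 5 vehicle arrays. The level was -3.86, -4.06, -4.26, -4.67 and -4.08 on day 4 arrays 1 to 5, and -5.06, -5.19, -6.55, -6.82 and -5.38 on vehicle arrays 1 to 5. All day 4 arrays were higher, and vehicle arrays 3 and 4 were the lowest. The fitted difference was 1.61 ± 0.34 (limma adjusted p = 0.00786). No probe was well above background in vehicle, and the day 4 mean of the longer probe (-4.96, well above on 3 of 5 arrays) was under the bound of -4.92, so no fold is given.

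miR-551b-5p was detected on 5 of 5 day 4 and 2 of 5 vehicle arrays. Its level was -3.27, -4.33, -4.28, -3.59 and -3.95 on day 4 arrays 1 to 5 and -5.34, -4.82, -4.74, -5.05 and -5.59 on vehicle arrays 1 to 5. Day 4 array 2 was the lowest of its group and still above all vehicle arrays. The fitted difference was 1.22 ± 0.27 (limma adjusted p = 0.00935). For its brighter probe, well above background on 3 of 5 day 4 arrays and 0 vehicle arrays, the day 4 mean of -4.71 was at least 1.15-fold above the bound of -4.92.

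miR-489-3p, known for a role in muscle stem cell quiescence, was listed as detected on all 10 arrays, at low signal. Its summed signal was 12.4, 15.8, 15.9, 15.6 and 16.4 intensity units on day 4 arrays 1 to 5 and 6.80, 6.27, 8.04, 8.90 and 8.48 on vehicle arrays 1 to 5. The fitted difference was 0.63 ± 0.13 (limma adjusted p = 0.00786). Of its 4 probes, 1 separated the groups after scaling. That was the shortest, of 14 bases, whose signal was below 0 on all arrays, from -2.25 to -1.60 in vehicle and from -1.35 to -0.937 at day 4. The longest probe ranged from 7.52 to 10.2 in vehicle and from 9.96 to 14.5 at day 4 and gave a ratio of 1.16. None was well above background in vehicle, so no fold is given. With the mean of log2 probes in place of the sum, the difference was 0.09 (limma adjusted p = 0.361). Its direction turned with normexp background correction (-0.08) and in the deposited log2 values (-1.90).

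**Figure D1:**
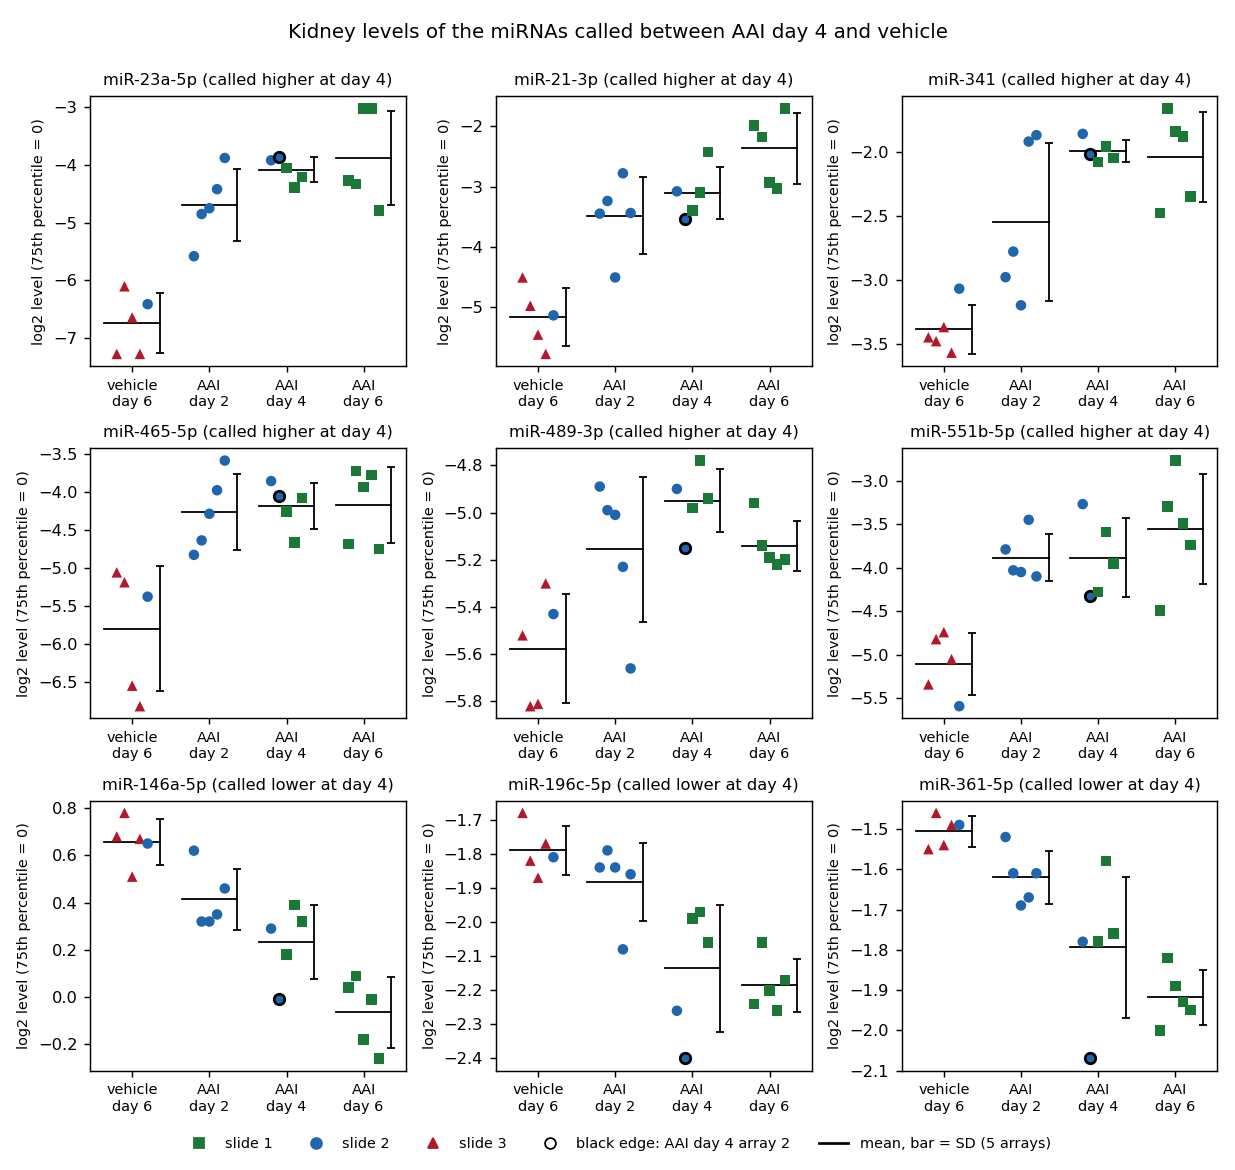
Log2 level (75th percentile of the array = 0) of the 9 called miRNAs on each of the 20 arrays, by group. Colour and shape give the slide, lines the group mean and bars the SD over 5 arrays. The day 4 and vehicle points do not overlap in any panel; the vehicle points of miR-23a-5p at -7.27 lie at the floor.

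The 3 miRNAs that fell did so by small amounts. miR-146a-5p, induced by NF-kB and a repressor of TRAF6 and IRAK1, was 0.29, -0.01, 0.18, 0.39 and 0.32 on day 4 arrays 1 to 5 and 0.68, 0.78, 0.51, 0.67 and 0.65 on vehicle arrays 1 to 5. All day 4 arrays were lower, and array 2 was the lowest. It was 1.34-fold lower, a difference of -0.42 ± 0.09 (limma adjusted p = 0.00786), and -0.36 ± 0.09 without array 2 (limma adjusted p = 0.0189). Its seed partner miR-146b-5p, at -3.76 ± 0.41 at day 4 and -3.76 ± 0.10 in vehicle, did not pass (limma adjusted p = 0.998).

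miR-196c-5p, encoded with its relatives in the Hox clusters, was -2.26, -2.40, -1.99, -1.97 and -2.06 on day 4 arrays 1 to 5 and -1.79 ± 0.07 in vehicle, where the lowest array was -1.87. The difference was -0.35 ± 0.08 (limma adjusted p = 0.0192), and -0.28 ± 0.07 without array 2 (limma adjusted p = 0.0414). The 2 day 4 arrays on slide 2 were the lowest. The call was lost without vehicle array 1 (limma adjusted p = 0.0681), without day 4 array 1 (limma adjusted p = 0.0567) and with only the 2 groups in the fit (limma adjusted p = 0.114). Its seed partners miR-196a-5p and miR-196b-5p differed by -0.22 ± 0.08 and -0.21 ± 0.08 and did not pass (limma adjusted p = 0.144 for both). The other arm, miR-196c-3p, differed by 0.01 ± 0.18.

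miR-361-5p was -1.78, -2.07, -1.78, -1.58 and -1.76 on day 4 arrays 1 to 5 and -1.51 ± 0.04 in vehicle. The difference was -0.29 ± 0.07 (limma adjusted p = 0.0309), and -0.22 ± 0.06 without array 2 (limma adjusted p = 0.0443). Array 2 lay farthest below vehicle. The call was lost when any 1 of 8 of the 10 arrays was left out (all 5 vehicle arrays and day 4 arrays 1, 3 and 5), with an adjusted p of 0.0511 to 0.0932.

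The calls of the falls depend on the scaling. Before scaling, the signal of miR-146a-5p was 553 ± 64.9 intensity units at day 4 and 577 ± 54.7 in vehicle, that of miR-196c-5p 108 ± 19.0 and 106 ± 10.3, and that of miR-361-5p 136 ± 16.9 and 129 ± 17.7. Without scaling, the differences were -0.06, 0.02 and 0.07. The median of all tested miRNAs moved from -0.07 with scaling to 0.29 without, and to 0.13 with scaling to the spike-ins. In place of 6 higher and 3 lower, the calls were 7 and 0 with scaling to the median or to the 75th percentile of all miRNAs, 7 and 2 with quantile normalization, 9 and 0 with the spike-ins and 14 and 0 without scaling.

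The groups of arrays did not overlap for 18 miRNAs (6.87%), 8 higher (3.05%) and 10 lower (3.82%). Without array 2 they did not for 27 (10.3%), 12 higher (4.58%) and 15 lower (5.73%). The 9 called are among the 18. The other 9 missed the adjusted threshold. They were miR-3562 (0.69 ± 0.21) and miR-30b-3p (0.72 ± 0.25) on the higher side. On the lower side they were miR-28-5p (-0.29 ± 0.08, limma adjusted p = 0.0508), let-7b-3p (-0.30 ± 0.14), miR-532-3p, miR-378b, miR-652-3p, miR-99b-5p and miR-196b-5p (-0.24 to -0.21). Without scaling, the differences of these 7 lay from 0.06 to 0.15. At an unadjusted p under 0.05, 58 miRNAs (22.1%) differed, 16 higher (6.11%) and 42 lower (16.0%). Over all tested miRNAs 168 differences (64.1%) were negative, against 59 (22.5%) with spike-in scaling and 14 (5.34%) without scaling.

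Among miRNAs detected on all 10 arrays, several with large differences missed the adjusted threshold. miR-34a-5p, a direct target of p53, was -2.52, -1.34, -1.82, -1.12 and -0.33 on day 4 arrays 1 to 5 and -2.78, -2.59, -2.36, -2.47 and -2.40 on vehicle arrays 1 to 5. Arrays 2 to 5 were above every vehicle array and array 1 was within their range. The difference was 1.09 ± 0.37 (limma adjusted p = 0.111), and 1.36 ± 0.36 without array 1 (limma adjusted p = 0.0425). miR-347 (1.08 ± 0.43), miR-125a-3p (0.78 ± 0.29), miR-877 (0.75 ± 0.22), miR-338-5p (0.63 ± 0.20) and miR-3573-3p (0.60 ± 0.19) had a limma adjusted p of 0.0759 to 0.144. Day 4 array 2 lay above the mean of the other 4 day 4 arrays by 1.15 for miR-125a-3p and by 1.06 for miR-877.

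On the lower side, miR-3558-3p was -3.99, -2.35, -4.53, -3.80 and -3.53 on day 4 arrays 1 to 5 and -2.51 ± 0.19 in vehicle. Day 4 array 2 was at the vehicle level and the other 4 were below it. The difference was -1.13 ± 0.47 (limma adjusted p = 0.157), and -1.45 without array 2 (limma adjusted p = 0.120). miR-500-3p had the same shape, with array 2 at -0.44 and the others from -1.27 to -0.93, against -0.42 ± 0.08 in vehicle. Its difference was -0.53 ± 0.17 (limma adjusted p = 0.0887), and it passed without array 2 (-0.66, limma adjusted p = 0.0223). miR-3588, miR-3544, miR-185-5p, miR-2985 and miR-702-3p differed by -0.49 to -0.36 and did not pass.

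**Figure D2:**
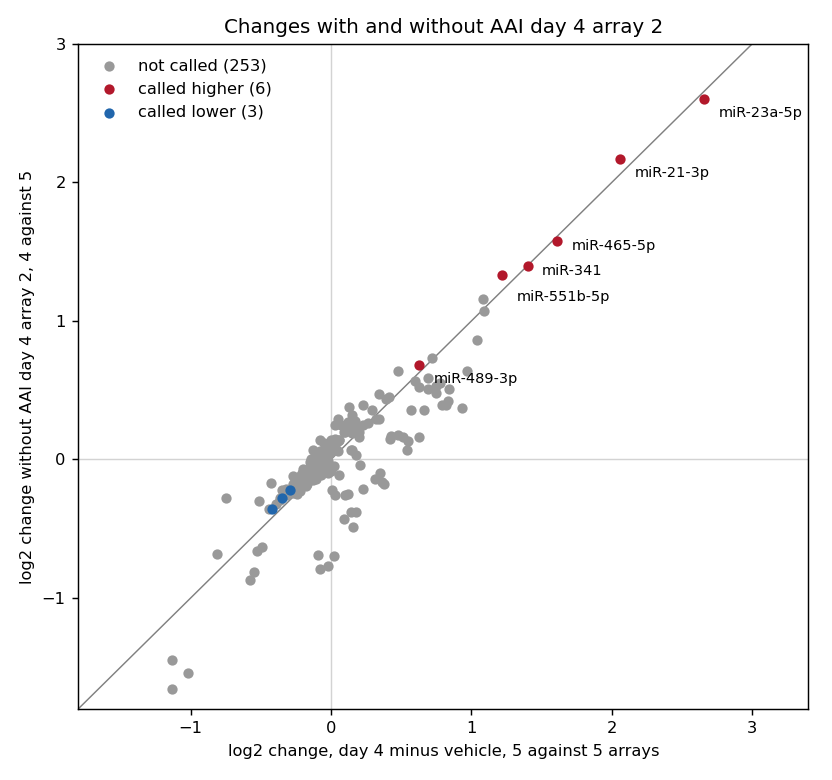
Log2 change of each of the 262 tested miRNAs, day 4 minus vehicle, with all 5 day 4 arrays (x axis) and without array 2 (y axis), with the line of equality. The 6 called higher lie near the line; miRNAs to the right of and below it are those that array 2 raised.

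The labelled tissue was checked first by its markers. All 17 miRNAs of the kidney-enriched list were detected on all 10 arrays. At day 4, 1 of the 17 fell (miR-196c-5p), against 1.15% of all tested miRNAs, and 16 did not pass. The median difference was -0.16, against -0.07 over all tested miRNAs, and 16 of 17 values were negative, against 64.1% of all tested miRNAs. The differences were -0.20 ± 0.13 for miR-192-5p, -0.21 ± 0.13 for miR-194-5p, -0.18 ± 0.10 for miR-204-5p and -0.04 ± 0.09 for miR-30a-5p. Without scaling, the list's median was 0.20 and that of all tested miRNAs 0.29. Leaving out the scaling moves all values of an array alike, apart from those at the floor, so it cannot test this gap. With quantile normalization the medians were -0.12 and -0.11. In a bulk tissue, fewer cells of a type and less RNA per cell cannot be told apart.

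The let-7 family, whose members share the seed GAGGUAG and repress growth-promoting targets, had 8 tested members, all with negative values (64.1% of all tested miRNAs), and 0 calls. Their differences ranged from -0.32 (let-7e-5p, ± 0.12) to -0.08 (let-7i-5p, ± 0.09), with a median of -0.23. At an unadjusted p under 0.05, 6 of the 8 were lower, against 16.0% of all tested miRNAs. Without array 2 the median was -0.15, against -0.03 over all tested miRNAs, and without scaling 0.13, against 0.29. With quantile normalization it was -0.11, the same as over all tested miRNAs. Of the p53-induced list, 0 of 6 passed (median -0.03). The share passing over all tested miRNAs, for this list and for let-7, was 3.44%. The miR-34 members differed by 1.09, 0.13 ± 0.28 (miR-34b-5p) and 0.23 ± 0.28 (miR-34c-5p), and miR-192-5p, miR-194-5p and miR-107-3p by -0.21 to -0.19.

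Of 11 tested miRNAs reported as higher in injured kidney, miR-21-3p rose, miR-146a-5p fell and 9 did not pass (median 0.09). Over all tested miRNAs, 2.29% rose and 1.15% fell. miR-212-3p differed by 0.34 ± 0.17 and miR-18a-5p by 0.15 ± 0.25. The 3 miR-29 members, known as repressors of collagen genes, differed by 0.02 to 0.29 (median 0.15). None of the 5 miR-200, 5 miR-30, 11 miR-17 cluster or 6 miR-322 and miR-503 cluster members passed, against 3.44% of all tested miRNAs. Their medians were -0.09, -0.04, 0.05 and 0.03. Of the Hox-cluster list, 1 of 5 fell, miR-196c-5p, against 1.15% of all tested miRNAs, with a median of -0.21. Of the 7 tested members of the miR-23, miR-27 and miR-24 clusters, miR-23a-5p rose and 6 did not pass. Over all tested miRNAs 3.44% passed.

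Markers of other cells the kidney could hold had list medians from -0.81 to -0.06. The median of the liver, muscle, brain and pancreas list was 0.05. Of 6 leukocyte miRNAs, miR-146a-5p fell, which other cells also express, and 5 did not pass. Over all tested miRNAs 1.15% fell. The list's median was -0.37 (-0.23 without array 2). The values were -0.51 ± 0.27 for miR-142-3p, -0.31 ± 0.19 for miR-223-3p, -0.27 ± 0.12 for miR-342-3p and 0.06 ± 0.14 for miR-150-5p. The summed level of the list is given in multiples of the 75th percentile and includes miR-146a-5p itself. It was 4.02 to 4.23 on the vehicle arrays and 2.78 to 3.72 on the day 4 arrays. Without scaling, the list's median was 0.00, against 0.29 over all tested miRNAs. With quantile normalization these medians were -0.36 and -0.11. A part of leukocytes in the fall of miR-146a-5p was not tested. The erythrocyte marker miR-451-5p differed by -0.81 ± 0.34 (limma adjusted p = 0.157), and the summed level of that list was 0.392 to 1.28 in vehicle and 0.302 to 0.640 at day 4. The stromal and smooth muscle list (5 tested) and the endothelial list (2 tested) had no call, against 3.44% of all tested miRNAs. Their medians were -0.16 and -0.06. Of the 10 listed miRNAs of liver, muscle, brain and pancreas, 8 were detected on at least 1 of the 10 arrays. The 3 tested, miR-133b-3p, miR-9a-5p and miR-375-3p, were detected on all 10 arrays. Of these 0 passed, against 3.44% of all tested miRNAs. miR-122-5p was detected on 3 arrays, miR-206-3p and miR-124-3p on 2 each, and miR-133a-3p and miR-217-5p on 1 each. miR-1-3p and miR-216a-5p were detected on 0.

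**Figure D3:**
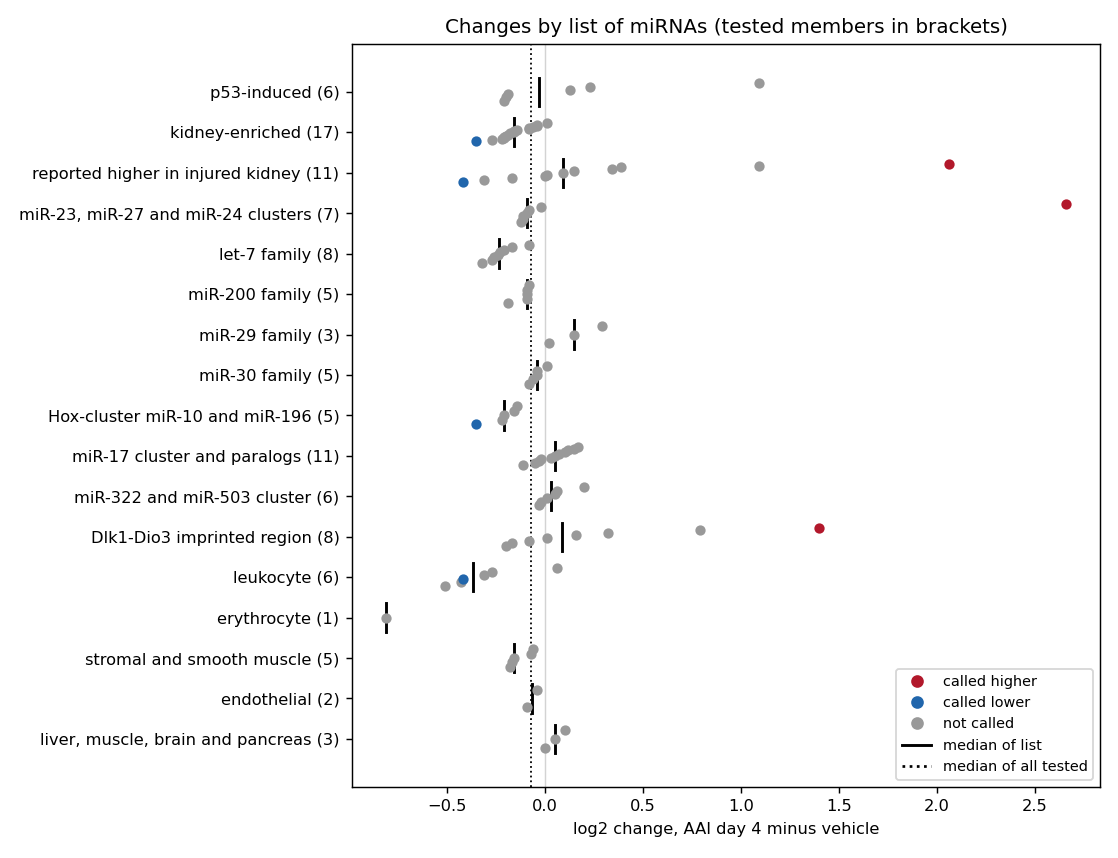
Log2 change, day 4 minus vehicle, of the tested members of each list (points), with the list's median (thick line) and the median of all 262 miRNAs (dotted line, -0.07). Called miRNAs are coloured; most lists lie within 0.5 of 0, and the red points are miR-21-3p, miR-23a-5p and miR-341.

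The day 4 arrays detected more miRNAs. They listed 269, 328, 284, 276 and 278 miRNAs on arrays 1 to 5, against 258 to 269 on the vehicle arrays. The day 4 arrays were at or above the highest vehicle array, and array 2 stood out. The means were 287 ± 23.5 and 265 ± 4.16 (SD, n = 5 each; two-sided exact permutation p = 0.0159, 0.0318 adjusted over 2 measures). Without array 2 the day 4 mean was 277 ± 6.18 (exact permutation p = 0.0159, the smallest possible with 4 against 5 arrays). The 75th percentile signal was 472 ± 73.8 against 367 ± 51.9 intensity units (exact permutation p = 0.0476), and the groups overlapped. Without array 2 it was 451 ± 64.5 (exact permutation p = 0.0794). With 5 against 5 arrays the smallest possible p is 0.00794.

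Detection itself separated few miRNAs. In all, 60 were detected on at least 1 day 4 and 0 vehicle arrays, and 41 of the 350 detected on any of the 10 arrays were detected on array 2 alone. Without array 2, 19 remained with detection on at least 1 day 4 and 0 vehicle arrays. In the reverse direction, 4 were detected on at least 1 vehicle and 0 day 4 arrays.

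**Figure D4:**
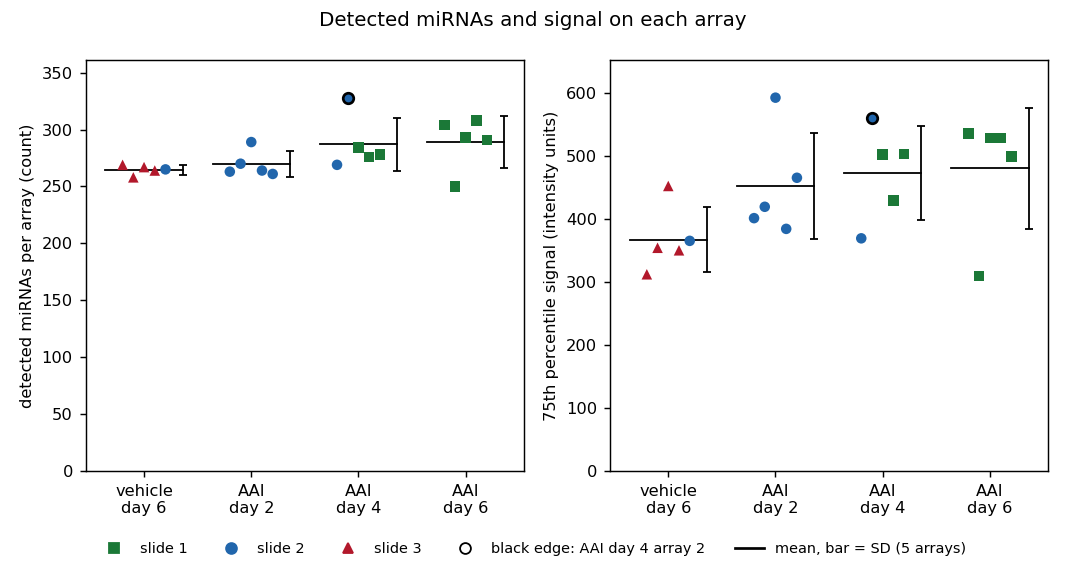
Detected miRNAs (left, count) and 75th percentile signal (right, intensity units) on each of the 20 arrays by group, with slide as colour and shape, the mean as line and the SD as bar. Day 4 array 2, with 328 detected miRNAs, is edged in black.

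Array 2 of day 4 differed from the other 4 in many miRNAs at once. For 168 of the 262 tested miRNAs (64.1%) it was the lowest of the 5 day 4 arrays and for 53 (20.2%) the highest. It was at least 2-fold above the mean of the other 4 for 41 miRNAs and at least 2-fold below for 7. On the vehicle arrays, 0 to 15 miRNAs were 2-fold above their group and 0 to 7 were 2-fold below. The number below on array 2 thus equalled the highest of the vehicle arrays. On the other 4 day 4 arrays, 0 to 3 were above and 2 to 15 below. The mean they are set against includes array 2, so their counts cannot serve as a yardstick for it. The largest excess was in miR-3546 (3.73), miR-6315 (3.60), miR-494-3p (3.55), miR-370-3p (3.21) and miR-1224 (3.0). The largest deficit was in miR-33-5p (-2.32), miR-142-5p (-1.30), miR-34b-5p (-1.26), miR-19a-3p (-1.21) and miR-141-3p (-1.10). Its correlation with the other day 4 arrays across miRNAs, which are not independent, was 0.912 to 0.943 (0.98 to 0.996 among vehicle arrays).

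Sequences of the 5 with the largest excess, from RefSeq with the seed in capitals, are shown because they set array 2 apart most.
miR-3546: aUAACCCGggccaaaagcucac
miR-6315: uCUGGACAggacaggcccugagc
miR-494-3p: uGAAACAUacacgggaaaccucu
miR-370-3p: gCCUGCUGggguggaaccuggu
miR-1224: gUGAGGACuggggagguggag
Of the 41, 35 had a sequence, with a median GC content of 59.1% and a median G content of 39.1%, against 47.8% and 23.9% over the 232 tested miRNAs with one. The 5 shown do not all share this, with a G content of 18.2% for miR-3546 and 17.4% for miR-494-3p, below that of all tested, and 34.8%, 45.5% and 61.9% for miR-6315, miR-370-3p and miR-1224. miR-494-3p was 1500, 22600, 1740, 1490 and 1470 intensity units on day 4 arrays 1 to 5, and 955, 1710, 4250, 4420 and 1570 on vehicle arrays 1 to 5. The excess was on array 2, while vehicle arrays 3 and 4 were the highest of their group. Vehicle array 4 was 2-fold above its group for 15 miRNAs, and 14 of these (93.3%, or 34.1% of the 41) were among the 41. None of the 41 was called at day 4, against 3.44% of all tested miRNAs. Choosing them by 1 array far above its group widens their spread, so this count cannot show whether array 2 affected the calls.

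**Figure D5:**
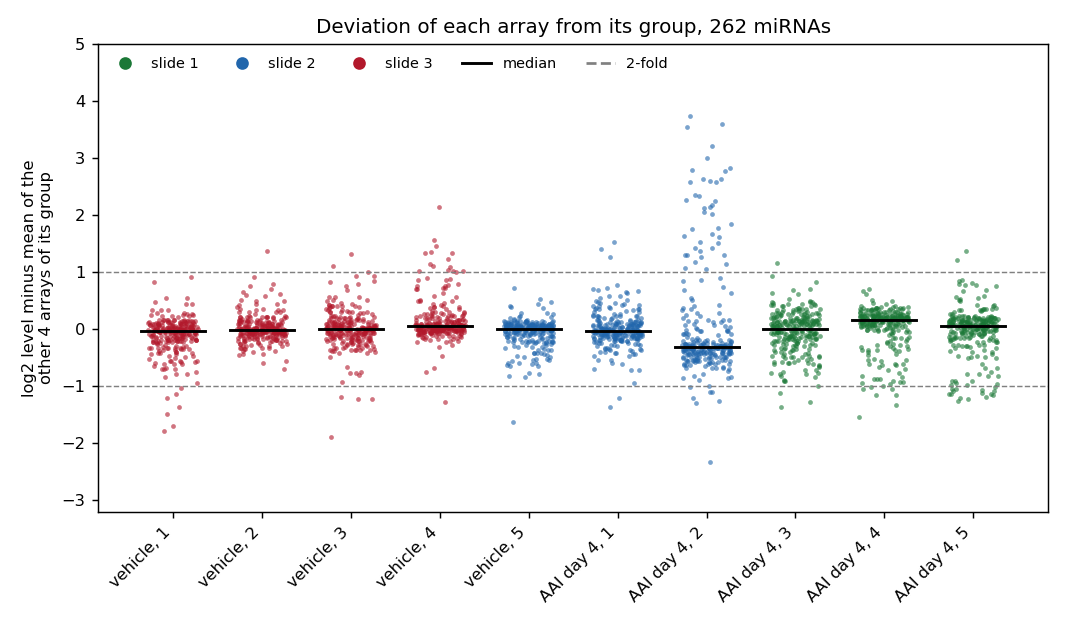
Log2 level of each of the 262 tested miRNAs on an array minus the mean of the other 4 arrays of its group (points), for the 10 arrays, coloured by slide, with the median of each array and dashed lines at 2-fold. Day 4 array 2 has a median of -0.31 and reaches 3.73.

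Day 4 kidneys were spread over 2 of the 3 slides. Arrays 1 and 2 shared slide 2 with vehicle array 5 and the day 2 arrays, and arrays 3 to 5 shared slide 1 with the day 6 arrays. The other vehicle arrays, 1 to 4, were alone on slide 3. With slide as a random block, 3 of the 9 remained called: miR-23a-5p (2.61 ± 0.47, limma adjusted p = 0.00776), miR-21-3p (1.99 ± 0.44, limma adjusted p = 0.0316) and miR-341 (1.31 ± 0.30, limma adjusted p = 0.0333). Slide 2 gave 2 day 4 arrays against 1 vehicle array. The spread there came from the day 4 and day 2 arrays, and the lone vehicle array was assumed to vary like them. On that assumption 0 were called in limma, with 48 at an unadjusted p under 0.05. The differences there were 2.52, 1.83, 1.14, 1.42, 0.41 and 1.79 for miR-23a-5p, miR-21-3p, miR-341, miR-465-5p, miR-489-3p and miR-551b-5p, and -0.51, -0.52 and -0.44 for miR-146a-5p, miR-196c-5p and miR-361-5p. All 9 kept their direction.

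Slide as a fixed block rests on the same slide 2 arrays and gave 19 calls, 10 higher and 9 lower, of which 4 were among the 9. Its new calls included let-7a-5p, let-7b-5p, let-7d-5p, let-7e-5p and let-7f-5p on the lower side. Without array 2, the fixed block gave 0 calls in limma, and 34 at an unadjusted p under 0.05. The count in that fit thus went from 19 to 0 with 1 array.

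Day 4 was set beside the other AAI days, whose comparisons share the vehicle arrays. Against vehicle, limma called 4 miRNAs (1.53%) for the day 2 arrays, 9 for those of day 4 and 68 (26.0%) for those of day 6. No vehicle array shared the slide of the day 6 arrays, so no within-slide value can be had for day 6, and the collection day of the vehicle arrays differs from day 2 as it does from day 4. The difference from vehicle at days 2, 4 and 6 was 2.04, 2.66 and 2.86 for miR-23a-5p, 1.69, 2.06 and 2.81 for miR-21-3p, and 0.83, 1.40 and 1.35 for miR-341. It was 1.53, 1.61 and 1.62 for miR-465-5p, 0.42, 0.63 and 0.43 for miR-489-3p, and 1.22, 1.22 and 1.55 for miR-551b-5p. It was -0.25, -0.42 and -0.72 for miR-146a-5p, -0.09, -0.35 and -0.40 for miR-196c-5p, and -0.11, -0.29 and -0.41 for miR-361-5p. The day 4 mean lay between those of day 2 and day 6 for 6 of the 9 (66.7%). That share is near the 61.1% of all tested miRNAs, 160 of 262.

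Tested directly, AAI day 4 differed from day 2 for 0 of 262 miRNAs in limma, with 20 (7.63%) at an unadjusted p under 0.05 and 0.0% called. Of the 9, miR-341 had a step of 0.56 ± 0.22 and miR-23a-5p one of 0.61 ± 0.35 (limma adjusted p = 0.609 and 0.667). With slide as a fixed block this comparison gave 34 calls, and 0 when array 2 was also left out.

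From day 4 to day 6, 2 miRNAs (0.763%) were called, 1 in each direction (0.382%), with 24 (9.16%) at an unadjusted p under 0.05. miR-34a-5p rose, to 0.82, -0.17, 0.43, -0.53 and 1.46 on day 6 arrays 1 to 5, a difference of 1.83 ± 0.37 (limma adjusted p = 0.0145). The highest day 4 array (-0.33) lay above the lowest day 6 array, so the groups overlapped. Without day 4 array 1 it was 1.56 ± 0.36 and missed the threshold (limma adjusted p = 0.0525). miR-451-5p, a miRNA of red blood cells, fell to -3.11, -2.36, -2.96, -2.89 and -4.17, below all 5 day 4 arrays (-1.73 to -0.64), a difference of -1.91 ± 0.34 (limma adjusted p = 0.00538). Within slide 1, with 3 day 4 and 5 day 6 arrays, the differences were 1.49 ± 0.49 and -2.12 ± 0.37 (limma adjusted p = 0.202 and 0.0533). Without day 4 array 2, 6 were called, with miR-146a-5p, miR-181a-5p, miR-181b-5p and miR-6216 added. The count also moved to 5 without day 4 array 5, 8 without day 6 array 4, and 1 without any of day 4 arrays 1 or 3 or day 6 arrays 1 or 5.

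For the day 4 comparison itself, leaving out 1 array at a time gave 7 to 14 calls. The 14 came without day 4 array 4, when let-7d-5p, miR-151-5p, miR-185-5p, miR-203a-3p and miR-28-5p were added. Each of the 6 risen miRNAs stayed called without any 1 of the 10 arrays (limma adjusted p of 0.000144 to 0.0403). With normexp background correction, which adds 50 intensity units to each spot, 0 were called in limma and 19 had an unadjusted p under 0.05. The differences then were 0.03 for miR-23a-5p, 0.12 for miR-21-3p, 0.42 for miR-341 and -0.08 for miR-489-3p. The highest signal of a single probe of these 4 miRNAs on any of the 10 arrays was 78.3 intensity units, for miR-341.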

How the data were processed

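Agilent 1-colour rat miRNA arrays with 719 miRNAs on 1730 probes and 14380 spots were analysed. Per the file headers, the deposited spot values are background-subtracted intensity from Agilent Feature Extraction 10.7.1.1, not scaled between arrays. The deposited flags for detection, background and outlier spots are another kind of value, 0 or 1. Log2 values of 740 entries, deposited for the whole series, have column medians of -3.32 to -3.01. Their scaling is not given in the sources used here, and they served as an alternative.

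The unflagged spot means were summed over the probes of a miRNA and divided by the array's 75th percentile over the 231 miRNAs detected on all 20 arrays. Values were floored at 0.00647, which held for 12 of 5240 tested values, and log2 taken. Tested were the 262 of 357 detected miRNAs with detection on all 5 arrays of at least 1 group. The 4 groups were fitted together in limma 3.58.1 (R 4.3.3; version 1.17.8 of data.table; 16 residual and 2.18 prior degrees of freedom), and the procedure was tested on simulated data. Array measures were compared by exact permutation over 252 splits, or 126 without day 4 array 2. A fold bound sets the day 4 mean of a probe against, per vehicle array, the higher of the lowest signal among probes well above background and the probe's own signal. The number of arrays limits the precision.

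The text names the called miRNAs, those whose groups do not overlap, up to 10 per direction with the largest difference among those detected on all 10 arrays with unadjusted p under 0.05, those called between AAI days, the 5 extremes per direction of array 2, and list members, arms and seed partners. Members and lists were chosen with earlier results of these data known. Alternatives were other background corrections, scalings, probe summaries, detection filters, variance models, slide and replicate blocks, and leaving out each array. A pair that combined no scaling or spike-in scaling with leaving out array 2 was chosen after seeing the data.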

Additional observations from a re-analysis of the deposited data

Results flagged for a closer look

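AAI day 4 array 2 listed 328 detected miRNAs, apart from the other 4 arrays of its group; its gap to the next was 0.746 of the group's range. The array had been singled out beforehand for this count, so the gap is a description. None of the 18 groups of 5 levels of the called miRNAs held an array apart. The calls favour miRNAs with a small spread within groups, so this count too is only a description.

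Between AAI day 4 and day 6, miR-34a-5p changed by 1.83 (limma adjusted p = 0.0145) and miR-451-5p by -1.91 (limma adjusted p = 0.00538).

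Outside the tested miRNAs, miR-125b-2-3p and miR-129-5p were each detected on 4 of 5 day 4 arrays and on 0 of 5 vehicle arrays. Their mean day 4 levels were -5.23 and -5.05. Among the 357 miRNAs detected on at least 1 array, 12 were called, which added miR-129-5p, miR-138-1-3p and miR-206-3p.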

How the results depend on the processing

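The 9 calls of day 4 against vehicle became 0 with normexp, 14 without scaling, 4 with the software's gene signal, 5 of 236 when both groups had to be detected on all arrays, 19 with a fixed slide block, 3 with a random one, 0 within slide and 0 with the fixed block and array 2 left out. Leaving out 1 array gave 7 to 14. The 2 calls of day 6 against day 4 became 1 with normexp, without scaling, with only the 2 groups, with either slide block or with the fixed block and array 2 left out, 0 within slide, and 1 to 8 without 1 array. The 0 calls of day 4 against day 2 became 34 with slide as a fixed block. The excess of 22.4 detected miRNAs per array passed under every alternative with a test. The 75th percentile excess of 106 was 32.0 with the median in its place (exact permutation p = 0.0635), and 84.1 to 131 without 1 array (exact permutation p = 0.0159 to 0.0873).

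Among 32 named miRNAs under 31 alternatives, 845 of 988 values kept direction and side of the threshold and 36 turned. Without scaling, these turned to 0.02 (miR-196c-5p), 0.07 (miR-361-5p), 0.07 (miR-28-5p), 0.13 (miR-532-3p), 0.13 (miR-652-3p), 0.13 (miR-378b), 0.15 (miR-196b-5p), 0.13 (miR-99b-5p), 0.06 (let-7b-3p), 0.01 (miR-2985) and 0.00 (miR-702-3p), and with array 2 also left out to 0.02, 0.08, 0.06, 0.08, 0.07, 0.05, 0.16, 0.14, 0.06, 0.01 and 0.01. With spike-ins and array 2 left out, miR-196b-5p was 0.05 and miR-99b-5p 0.03. Normexp turned miR-489-3p (-0.08), miR-30b-3p (-0.02) and miR-338-5p (-0.06). The software's signal turned miR-532-3p (0.24), let-7b-3p (1.46), miR-877 (-0.20) and miR-338-5p (-1.15), and the deposited table miR-489-3p (-1.90) and miR-338-5p (-1.06). The fixed block with array 2 left out turned miR-34a-5p (-0.12), miR-3544 (0.14) and miR-2985 (0.02). The causes were not tested.

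Replicate numbers did not pair the samples (correlations of deviations -0.622 to 0.585); with a replicate block 8 were called, 7 of them among the 9. For 5 of the 6 risen miRNAs, signal over background limits what the arrays can show.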
